A study of Mus musculus with 72 samples.

Results

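The 10 immediate early genes Fos, Fosb, Junb, Egr1, Egr2, Arc, Npas4, Nr4a1, Ier2 and Dusp1 were followed in 72 mouse RNA-seq libraries. The genes were taken by name, and all 10 were found among the 53715 gene rows of the count files. The libraries came from 18 male mice aged 18 weeks, 6 of each Gnb5 genotype. Gnb5 encodes a G protein beta subunit that works with the R7 regulators of G protein signalling, and the knockout allele is a germline exon deletion on the C57BL/6J background, so it is not limited to a cell type. Atria and ventricles were profiled from Gnb5-/- (knockout), Gnb5+/- (heterozygous) and Gnb5+/+ (wild-type) mice, and cerebellum, hippocampus and cortex from Gnb5-/- and Gnb5+/+ mice, which gave 12 groups of 6 libraries. The labels name no treatment. Titles number the mice: 1, 3, 5, 10, 12 and 14 were Gnb5-/-, 2, 4, 6, 9, 11 and 13 were Gnb5+/-, and 7, 8, 15, 16, 17 and 18 were Gnb5+/+. A gene could therefore be compared between tissues of the same animal.

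Libraries held 29204390 to 48807435 reads counted on genes, with a median of 38864900. Gnb5 itself went with the labels. In atria it ranged from 26.6 to 32.9 CPM (read counts scaled to a common library size) in Gnb5+/+, from 13.8 to 18.9 in Gnb5+/- and from 1.49 to 2.60 in Gnb5-/- libraries, and the genotypes did not overlap in the other 4 tissues either. Summed cardiomyocyte markers were 34212 CPM or more in each heart library and 764 CPM or less in each brain library. In 3 groups 1 library stood apart over all genes. Its median absolute deviation from the genotype mean was 0.612 on the log2 scale for Gnb5-/- cortex of mouse 14 (next highest in that tissue 0.227), 0.558 for Gnb5-/- cerebellum of mouse 12 (next 0.165) and 0.347 for Gnb5+/- ventricles of mouse 4 (next 0.223). The same libraries had the lowest shares of reads outside genes in their tissues, at 6.86%, 8.02% and 2.85%. The spread of the members, their correlations within a tissue and the sharing over tissues are also given without them where they moved the value.

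Immediate early genes are transcribed within minutes of a stimulus, without new protein synthesis, when calcium, cyclic AMP or MAP kinase signals reach serum response factor and CREB. Fos, Fosb and Junb encode subunits of the AP-1 transcription factor, Egr1 and Egr2 zinc finger transcription factors, Npas4 a neuronal transcription factor induced by calcium entry, and Nr4a1 an orphan nuclear receptor. Arc encodes a cytoskeletal protein of active synapses, Ier2 a nuclear early response protein and Dusp1 a phosphatase that inactivates MAP kinases. In brain these transcripts are widely used as marks of recent neuronal activity, and in heart they respond to stretch, adrenergic signals and stress. Their messenger RNAs are short lived. In whole tissue, fewer cells of a type and less RNA per cell cannot be told apart.

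The promoters of 5 members that recur in the results are shown first. Each runs from 250 bases before to 50 bases after an annotated start, from RefSeq on GRCm38.p6, in the direction of transcription. Capitals mark matches on either strand to the CArG box (the serum response factor site), TGACGTCA (the full cyclic AMP response element), TGACG (its core, which lies inside TGACGTCA), TGANTCA (AP-1), GCGNGGGCG (EGR) and TATAAA. The regions were chr12:85473640-85473939 on the plus strand for Fos, chr7:19309996-19310295 on the minus strand for Fosb, chr15:101266596-101266895 on the plus strand for Nr4a1, chr17:26508423-26508722 on the minus strand for Dusp1 and chr10:67537619-67537918 on the plus strand for Egr2.
Fos: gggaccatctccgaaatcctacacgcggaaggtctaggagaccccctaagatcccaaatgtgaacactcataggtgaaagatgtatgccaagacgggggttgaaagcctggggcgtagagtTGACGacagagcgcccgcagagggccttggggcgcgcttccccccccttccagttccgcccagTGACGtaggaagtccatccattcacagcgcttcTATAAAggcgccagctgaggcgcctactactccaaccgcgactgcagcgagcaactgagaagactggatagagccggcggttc
Fosb: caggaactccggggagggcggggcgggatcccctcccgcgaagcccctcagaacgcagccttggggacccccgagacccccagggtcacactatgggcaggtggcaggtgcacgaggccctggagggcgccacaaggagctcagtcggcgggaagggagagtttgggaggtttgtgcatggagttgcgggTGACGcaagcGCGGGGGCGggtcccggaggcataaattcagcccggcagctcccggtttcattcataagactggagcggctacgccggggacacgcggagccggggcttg
Nr4a1: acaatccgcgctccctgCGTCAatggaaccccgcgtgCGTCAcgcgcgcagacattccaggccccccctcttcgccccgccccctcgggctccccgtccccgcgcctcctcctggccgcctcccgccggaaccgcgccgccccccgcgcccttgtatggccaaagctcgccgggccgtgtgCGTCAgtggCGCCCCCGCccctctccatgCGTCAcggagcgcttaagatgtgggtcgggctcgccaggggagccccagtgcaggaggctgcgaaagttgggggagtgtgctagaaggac
Dusp1: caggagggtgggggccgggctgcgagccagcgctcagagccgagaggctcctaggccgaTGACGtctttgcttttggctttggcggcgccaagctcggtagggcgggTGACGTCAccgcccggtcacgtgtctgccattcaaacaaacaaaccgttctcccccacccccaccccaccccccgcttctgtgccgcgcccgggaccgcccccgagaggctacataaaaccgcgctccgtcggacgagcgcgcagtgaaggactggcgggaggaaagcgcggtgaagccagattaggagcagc
Egr2: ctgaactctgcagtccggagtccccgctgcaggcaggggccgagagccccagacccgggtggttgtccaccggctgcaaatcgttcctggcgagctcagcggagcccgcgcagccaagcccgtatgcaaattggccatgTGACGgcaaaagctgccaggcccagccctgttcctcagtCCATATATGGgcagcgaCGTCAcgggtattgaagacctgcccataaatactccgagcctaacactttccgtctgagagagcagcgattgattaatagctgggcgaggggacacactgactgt

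The reference held 11 promoters of 7 members (Fos, Fosb, Junb, Egr2, Npas4, Nr4a1 and Dusp1), and Egr1, Arc and Ier2 had no entry. Egr2 accounted for 5 of the 11, and 3 of these overlap so far that they hold the same TGACG and CArG matches, so counts over promoters repeat those sites. TGACG was found in 9 of the 11 promoters and in at least 1 promoter of each of the 7 genes, beside 20.8% of all 32851 promoters of the same length. In Fos it lay 66 and 129 bases before the start and in Fosb 60 bases before it, and Nr4a1 had 4 matches, all on the other strand. The full TGACGTCA was found in Dusp1 alone among the members, 143 bases before the start, beside 1.79% of all promoters. A CArG box was found in 4 promoters of Egr2 and in no other member, beside 1.63% of all promoters. The EGR motif was found in Fosb and Nr4a1 (5.55% of all promoters), TATAAA in Fos and Junb (13.6%), and TGANTCA in no member (7.81%). A match describes these letters and no more.

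Levels across tissues were described in the 30 Gnb5+/+ libraries, scaled together. CPM values in the later sections were scaled within each tissue and differ from these for the same library. The order of heart against brain tissues can depend on this choice of scaling. Arc, Npas4, Egr1, Egr2, Fosb, Junb and Nr4a1 were highest in cortex by mean level, Dusp1 and Ier2 in atria and Fos in cerebellum. Cortex exceeded hippocampus in 9 of 10 members (edgeR quasi-likelihood test with the mouse as a block, adjusted p below 0.05), beside 37.7% of the 19477 genes tested that were called in either direction. Per kilobase of exon, members can be ranked within a tissue. Arc led in cortex at 75.8 ± 40.5 CPM per kilobase (SD, n = 6), ahead of Egr1 at 63.0 ± 11.1, and it led in hippocampus at 40.9 ± 20.6. Nr4a1 led in atria at 29.3 ± 20.4 CPM per kilobase, Dusp1 in ventricles at 23.0 ± 6.18 and Fos in cerebellum at 17.5 ± 12.3. With SDs of this size, the order of members within a tissue is that of the averages only.

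Among the zinc finger factors, Egr1 stood at 283 ± 49.8 CPM in cortex, 109 ± 43.7 in hippocampus, 84.9 ± 86.6 in atria, 48.6 ± 52.9 in ventricles and 34.5 ± 7.19 in cerebellum (SD, n = 6 here and in the levels that follow). In that order cortex differed from hippocampus and atria from ventricles (adjusted p = 0.00110 and 0.0394, edgeR), while hippocampus with atria and ventricles with cerebellum did not pass the threshold (adjusted p = 0.0597 and 0.692, edgeR). Egr2 stood at 12.9 ± 5.80 CPM in cortex, 4.84 ± 2.40 in atria, 4.62 ± 3.65 in hippocampus, 1.71 ± 0.824 in ventricles and 0.0690 ± 0.0391 in cerebellum, where each of the 12 libraries held 0 to 6 reads. Atria and hippocampus were the neighbours in the Egr2 order that did not pass the test (adjusted p = 0.428, edgeR). Npas4, the calcium-induced neuronal factor, stood at 27.8 ± 12.6 CPM in cortex, 13.7 ± 8.39 in hippocampus, 7.67 ± 2.503 in cerebellum, 1.22 ± 1.06 in atria and 0.264 ± 0.170 in ventricles. All 4 steps of the Npas4 order passed the test, the weakest being hippocampus over cerebellum, by 0.73 ± 0.29 on the log2 scale (SE, adjusted p = 0.0268, edgeR) and in 4 of 6 mice.

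Of the AP-1 subunits, Fos stood at 41.2 ± 28.9 CPM in cerebellum, 36.4 ± 18.8 in cortex, 23.8 ± 27.2 in atria, 17.2 ± 11.2 in hippocampus and 11.6 ± 13.9 in ventricles. Cortex over atria was the step in that order that passed the test (adjusted p = 0.0259, edgeR), and cortex and cerebellum differed by 0.01 ± 0.35 on the log2 scale. Fosb stood at 17.8 ± 6.45 CPM in cortex, 10.7 ± 5.44 in hippocampus, 7.41 ± 8.87 in atria, 2.00 ± 1.66 in cerebellum and 1.98 ± 1.603 in ventricles, and the last step was the one that did not pass (adjusted p = 0.744, edgeR). Junb stood at 37.9 ± 15.3 CPM in cortex, 27.6 ± 11.3 in hippocampus, 27.3 ± 15.1 in atria, 18.6 ± 7.81 in ventricles and 3.74 ± 2.19 in cerebellum. Junb was the member for which cortex was not called above hippocampus, with a log2 difference of 0.44 ± 0.22 (SE, adjusted p = 0.117, edgeR), although cortex was higher in 6 of 6 mice. By mean level cerebellum thus held the most Fos and the least Junb of the 5 tissues. Junb overlaps Prdx2 on the other strand, and whether counting used the strand is not given in the sources used here, so reads of the pair cannot be told apart if it did not.

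Arc, the synaptic gene, stood at 232 ± 124 CPM in cortex, 125 ± 63.0 in hippocampus, 14.7 ± 1.57 in cerebellum, 9.89 ± 5.76 in atria and 3.20 ± 0.981 in ventricles, and cerebellum with atria was the step that did not pass (adjusted p = 0.0839, edgeR). Nr4a1 stood at 122 ± 39.7 CPM in cortex, 103 ± 71.5 in atria, 67.7 ± 50.3 in ventricles, 67.3 ± 27.3 in hippocampus and 42.6 ± 16.2 in cerebellum, and no step in its order passed (adjusted p = 0.0608 to 0.433, edgeR). Dusp1 and Ier2 were arranged the other way, with both heart chambers above the 3 brain tissues by mean level under the joint scaling. Scaled within each tissue, Gnb5+/+ Ier2 averaged 11.2 CPM in cerebellum, 10.6 in atria, 7.91 in cortex and 7.10 in ventricles. Its order of heart against brain thus rests on the joint scaling. Dusp1 scaled in that way averaged 46.6 CPM in ventricles and 42.5 in cerebellum, closer than under the joint scaling. Dusp1 stood at 87.2 ± 52.9 CPM in atria, 76.3 ± 20.5 in ventricles, 32.8 ± 15.9 in cerebellum, 27.2 ± 11.7 in cortex and 13.1 ± 5.71 in hippocampus. Its steps from ventricles to cerebellum and from cortex to hippocampus passed the test, at 1.33 ± 0.19 and 1.06 ± 0.19 on the log2 scale (adjusted p = 3.01e-07 and 6.99e-05, edgeR). Ier2 stood at 12.6 ± 6.39 CPM in atria, 11.6 ± 3.51 in ventricles, 8.66 ± 2.18 in cerebellum, 6.21 ± 2.44 in cortex and 3.63 ± 1.204 in hippocampus, and atria with ventricles was the step that did not pass (adjusted p = 0.679, edgeR). Dusp1 overlaps Ergic1 and Gm8225 on the other strand, with the same limit as Junb.

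In the other comparisons of tissues most genes were called, so the members' counts are read beside that rate. Ventricles differed from atria in 7 members, all lower in ventricles (53.6% of all genes), a count that was 4 without mouse 18. Cerebellum differed from atria in 9 (87.3%) and from ventricles in 7 (87.3%). Hippocampus differed from atria in 5 (87.6%), from ventricles in 8 (87.8%) and from cerebellum in 9 (70.8%). Cortex differed from atria in 9 (88.1%), from ventricles in all 10 (88.3%) and from cerebellum in 8 (71.8%).

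**Figure D1:**
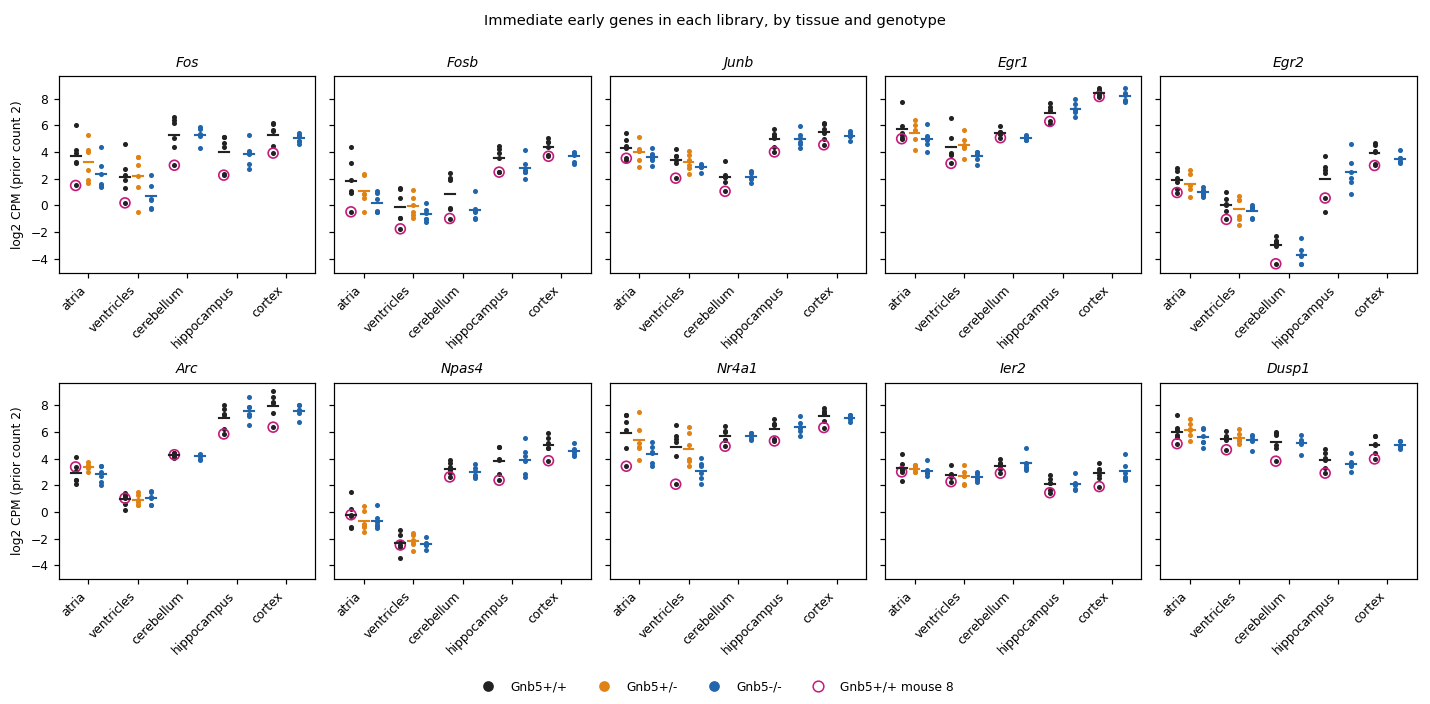
Each point is 1 library on a log2 CPM axis (prior count 2, scaled within each tissue), with a panel for each gene, tissues along the x axis, colours for genotypes, short lines at group means and circles around mouse 8. Mouse 8 was the lowest Gnb5+/+ library in 39 of 48 combinations of gene and tissue.

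Within a genotype the members differed widely between mice. In Gnb5+/+ atria Fos ranged from 2.77 through 12.4 to 65.2 CPM, and in Gnb5+/+ ventricles from 1.08 through 4.18 to 24.5 CPM (lowest, median and highest). Mouse 8 was lowest and mouse 15 highest in both chambers. Nr4a1 ranged from 10.7 through 90.03 to 153 CPM in Gnb5+/+ atria and from 4.16 through 40.5 to 92.2 CPM in Gnb5+/+ ventricles, with mouse 8 lowest in both and mice 15 and 7 highest. Over all 18 ventricular libraries the highest Nr4a1 value was 22.2 times the lowest, and for Fos the ratio was 38.5. In hippocampus Egr2 ranged most, from 0.650 CPM in Gnb5+/+ mouse 17 to 24.1 CPM in Gnb5-/- mouse 3. Arc in cerebellum stayed between 14.6 and 21.5 CPM over 12 libraries.

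**Figure D2:**
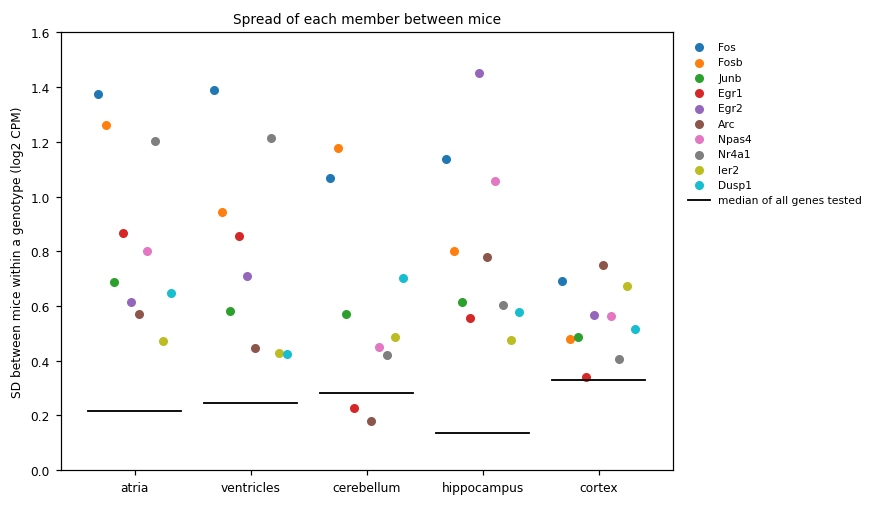
Points give the SD of each member between mice within a genotype, on the log2 CPM scale, by tissue, with the median SD of all genes tested marked. In hippocampus the 10 members lie between 0.48 and 1.45, where the median gene has 0.13.

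Measured as the SD of log2 CPM around the genotype means, the spread of the members had a median of 0.74 in atria, 0.71 in ventricles, 0.49 in cerebellum, 0.70 in hippocampus and 0.54 in cortex. The medians over all genes tested were 0.22, 0.25, 0.28, 0.13 and 0.33. Among the 10% of all genes with the largest spread stood 8 of 10 members in atria, 6 of 9 in ventricles, 3 of 9 in cerebellum, 10 of 10 in hippocampus and 0 of 10 in cortex. Npas4 in ventricles (1 to 11 reads a library) and Egr2 in cerebellum had too few reads to be tested. The cortical count rested on the library of mouse 14: without it 7 of 10 members were among them, and without the library of mouse 12 the cerebellar count was 6 of 9. Fos had the largest SD in atria (1.38) and ventricles (1.39), Fosb in cerebellum (1.18), Egr2 in hippocampus (1.45) and Arc in cortex (0.75). Arc had an SD of 0.18 in cerebellum and 0.78 in hippocampus of the same 12 mice.

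The members also moved with one another between the libraries of a tissue. Over pairs of members, the median Pearson r of the deviations from the genotype means was 0.935 in hippocampus (45 pairs), 0.728 in cortex (45), 0.612 in ventricles (36), 0.522 in atria (45) and 0.512 in cerebellum (36). Of all gene pairs, 7.61%, 27.4%, 8.90%, 5.42% and 26.0% had an r of 0.5 or more in these tissues. In hippocampus all 45 pairs of members did, with a lowest r of 0.759. Without the library of mouse 14 the cortical median was 0.867. The cerebellar median was 0.621 without the library of mouse 12 and 0.300 without that of mouse 8. These are descriptions over 12 or 18 libraries that share their scaling. Fos with Dusp1 had the highest median r over the 5 tissues, at 0.951 (range 0.782 to 0.975), and Junb with Dusp1 followed at 0.913. Fosb with Arc had the lowest, at 0.155, made up of 0.949 in hippocampus, 0.886 in cortex, 0.155 in ventricles, -0.0337 in cerebellum and -0.122 in atria.

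Whether a high level in 1 tissue went with a high level in another tissue of the same mouse was asked for each member and each pair of tissues. Genotype means were removed, mice were shuffled within genotype in 100000 permutations (two-sided), and p-values were adjusted over the 92 correlations, with 18 mice for atria with ventricles and 12 for the other pairs. Of the 92 values of Pearson r, 80 were above 0, and 27 had an adjusted permutation p below 0.05, all of them positive. The permutation test covered these 92 member correlations only, so the counts called have no share of all genes beside them. The shares of all genes given later use a cut on r and not this test. Over the tissue pairs, the median r of all genes ran from -0.111 (cerebellum with cortex) to 0.163 (cerebellum with hippocampus). Nr4a1 and Dusp1 passed in 6 pairs each and Fos and Fosb in 4, while Junb passed in 2 and Egr1, Egr2, Arc, Npas4 and Ier2 in 1 each. The median r over pairs was 0.784 for Nr4a1, 0.744 for Dusp1, 0.688 for Fosb, 0.626 for Junb and 0.617 for Fos, and each of these genes was positive in 10 of 10 pairs. It was 0.280 for Ier2, 0.151 for Egr1, 0.148 for Egr2, 0.1001 for Npas4 and 0.0394 for Arc. By rho, Fos and Dusp1 passed in 4 pairs each, Nr4a1 and Fosb in 3, Junb in 2, Egr1, Egr2, Npas4 and Ier2 in 1 and Arc in 0. With all mice, the AP-1 subunits, Nr4a1 and Dusp1 were thus the members whose level in 1 tissue most often went with that in another. This order by calls did not hold without mouse 8, as given below.

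In the heart 6 of 9 members were called between atria and ventricles. The strongest was Nr4a1, with r = 0.945 and Spearman rho = 0.895 over 18 mice (adjusted permutation p = 0.000460 and 0.00184), followed by Fos with r = 0.908 and rho = 0.899 (the same adjusted permutation p-values). Without the 2 mice farthest from the atrial median, r was 0.905 for Nr4a1 and 0.864 for Fos. Egr1 (r = 0.817), Junb (0.767), Egr2 (0.755) and Dusp1 (0.709) were the others called, and they stood at 0.621, 0.744, 0.684 and 0.577 without the farthest mice. Within genotypes, Nr4a1 and Fos had r = 0.971 and 0.967 in Gnb5+/+ and 0.802 and 0.954 in Gnb5-/- mice. The other called members had lower values within Gnb5-/- mice than within Gnb5+/+ mice: Egr1 0.143 against 0.968, Junb 0.124 against 0.831, Egr2 0.394 against 0.971 and Dusp1 0.614 against 0.835, and these differences were not tested. In this pair 6 of 9 members had an r of 0.5 or more, beside 12.3% of all genes tested.

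Within the brain 12 of 28 correlations were called. Dusp1 between hippocampus and cortex had r = 0.911 and rho = 0.937 over 12 mice (adjusted permutation p = 0.00552 for both), and r = 0.817 without the 2 farthest mice. Fos had r = 0.862 between cerebellum and cortex, 0.856 between cerebellum and hippocampus and 0.837 between hippocampus and cortex, and 0.658, 0.797 and 0.639 without the 2 farthest. In the same order Fos had r = 0.950, 0.918 and 0.982 within Gnb5+/+ and 0.204, 0.707 and 0.342 within Gnb5-/- mice. The median r of the members was 0.846, 0.694 and 0.962 within Gnb5+/+ and 0.204, 0.289 and 0.375 within Gnb5-/- mice. Differences between the genotypes were not tested. The Gnb5-/- values include the cortex library of mouse 14 and the cerebellum library of mouse 12, which stood apart. Over both genotypes the medians were 0.654, 0.579 and 0.760 in the same order. Without the libraries that stood apart they were 0.734, 0.580 and 0.828. Arc and Npas4, the members most tied to neuronal activity, were called between hippocampus and cortex alone, with r = 0.791 and 0.735, and Arc did not pass by rho (0.608, adjusted permutation p = 0.155). Egr1 had r = -0.103 between the same tissues, with 0.810 within Gnb5+/+ and -0.880 within Gnb5-/- mice. Egr2 had r = 0.533 there, with 0.952 within Gnb5+/+ and -0.477 within Gnb5-/- mice. For both genes mouse 14, whose cortex library stood apart, was the lowest Gnb5-/- mouse in hippocampus and the highest in cortex. The part of that library in these values was not tested. Members with an r of 0.5 or more numbered 8 of 10 for hippocampus with cortex (13.6% of all genes), 5 of 9 for cerebellum with cortex (8.63%) and 5 of 9 for cerebellum with hippocampus (16.4%).

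Between heart and brain 9 of 55 correlations were called, and they belonged to Nr4a1, Fosb, Dusp1 and Ier2. Nr4a1 had r = 0.910 between atria and cortex over 12 mice (adjusted permutation p = 0.0161) and rho = 0.776 (adjusted permutation p = 0.0625), and r = 0.745 without the 2 farthest mice. Fosb had r = 0.841 and rho = 0.895 in the same tissues (adjusted permutation p = 0.0180 and 0.0201). Ier2 between ventricles and cerebellum had r = 0.801, and 0.837 without the 2 farthest mice, whereas Dusp1 went from 0.852 to 0.478 there. Nr4a1 likewise went from 0.821 to 0.480 between ventricles and cortex, so these correlations lean on the 2 mice. Members with an r of 0.5 or more numbered 6 of 9 for atria with cerebellum (9.56% of all genes), 3 of 10 for atria with hippocampus (13.7%) and 4 of 10 for atria with cortex (8.39%). They numbered 7 of 8 for ventricles with cerebellum (8.26%), 5 of 9 for ventricles with hippocampus (14.9%) and 5 of 9 for ventricles with cortex (11.1%). The lowest value was that of Npas4 between atria and hippocampus, at r = -0.469 (adjusted permutation p = 0.232).

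**Figure D3:**
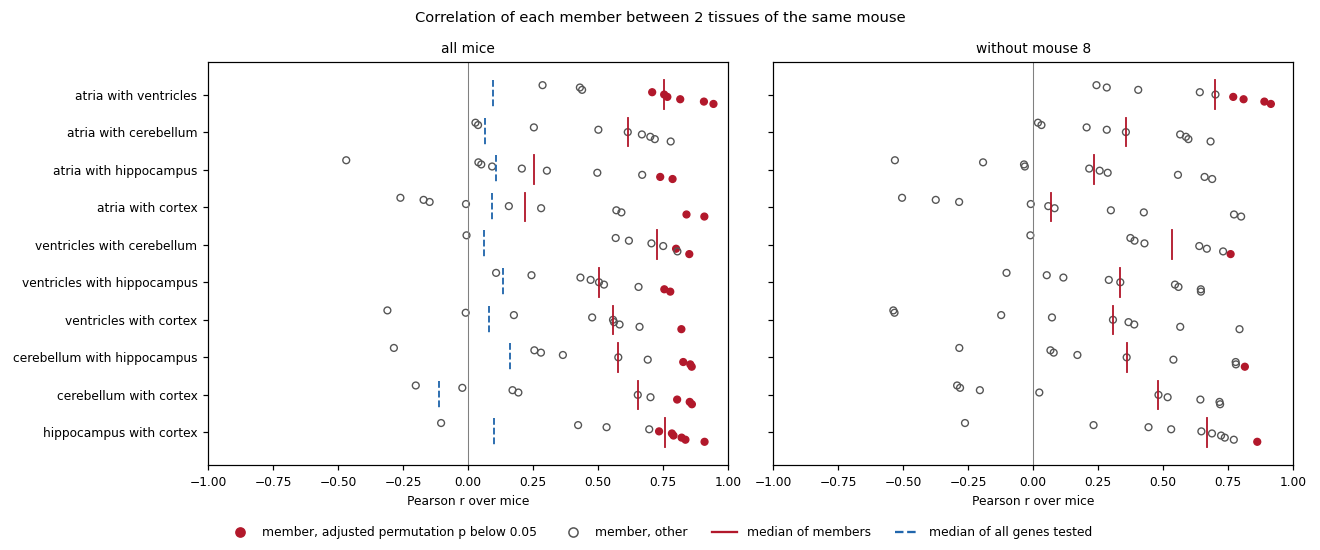
Each point is the Pearson r of 1 member over mice between 2 tissues after removal of genotype means, with all mice and without mouse 8; filled points had an adjusted permutation p below 0.05, solid lines mark the median of the members and dashed lines that of all genes tested. The medians of the members lie between 0.219 and 0.760 with all mice, and the number of filled points is 27 with all mice and 7 without mouse 8.

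These correlations leaned on a few wild-type animals. Without mouse 8, 7 of the 92 were called, all among the former 27: Fos, Junb, Egr1 and Nr4a1 between atria and ventricles, Ier2 between ventricles and cerebellum, Fos between cerebellum and hippocampus, and Dusp1 between hippocampus and cortex. Without mouse 15, 11 were called, and without mouse 18, 17. Signs moved less than calls, since 74 of 92 values of r were above 0 without mouse 8 and 70 without mouse 15. The median r of the members between atria and ventricles was 0.755 with all mice and 0.701 without mouse 8, whereas between atria and cortex it was 0.219 and 0.0698. Single wild-type mice moved the latter both ways, to -0.0209 without mouse 15, 0.356 without mouse 17 and 0.501 without mouse 16. Between hippocampus and cortex the median was 0.760, and 0.828 without mouse 14. Without the 3 libraries that stood apart, an alternative chosen after seeing the data, 34 correlations were called, 25 of them among the 27.

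**Figure D4:**
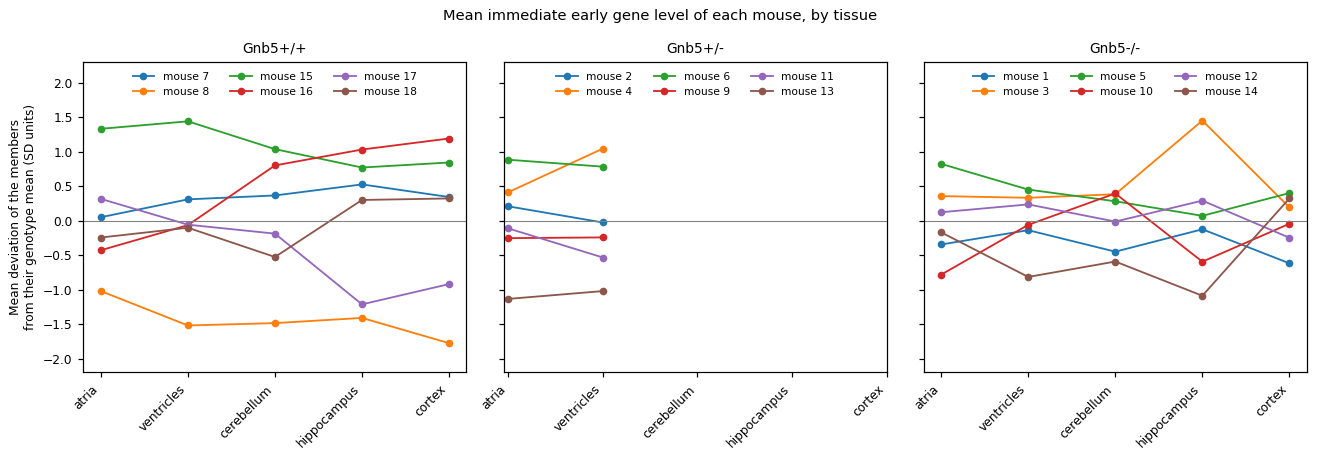
Lines join the tissues of 1 mouse, with a panel for each genotype, and the y axis gives the mean over the members of their deviation from the genotype mean, in units of each member's SD. Mouse 8 lies between -1.02 and -1.78 over the 5 tissues and mouse 15 between 0.77 and 1.44.

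Averaged over members in units of their SD, Gnb5+/+ mouse 8 stood below its genotype mean in all 5 tissues, at -1.02 in atria, -1.52 in ventricles, -1.49 in cerebellum, -1.41 in hippocampus and -1.78 in cortex. In cortex it was the lowest wild-type mouse for 10 of 10 members. Mouse 15 stood above the mean in all 5 tissues, at 1.33, 1.44, 1.04, 0.77 and 0.84 in the same order. Other wild-type mice differed by organ: mouse 16 was at -0.43 in atria and -0.07 in ventricles but at 0.80, 1.03 and 1.19 in cerebellum, hippocampus and cortex, and mouse 17 was at 0.32 in atria but -1.21 in hippocampus and -0.92 in cortex. Among Gnb5-/- mice, 3 and 5 were above their genotype mean in all 5 tissues and mouse 1 below it in all 5, and mouse 3 was highest for 10 of 10 members in hippocampus, at 1.45. In Gnb5+/- hearts mouse 13 was at -1.13 in atria and -1.02 in ventricles and was the lowest of its genotype in 13 of 19 combinations of gene and chamber. Over all genes the deviation of the libraries of mouse 8 ranked 10 of 18 in atria, 3 of 18 in ventricles and 11, 6 and 8 of 12 in cerebellum, hippocampus and cortex. In ventricles its mitochondrial share of counts was 28.1%, and that of mouse 14, whose members stood at -0.82 there, was 26.5%, while the others held 34.4% to 44.8%. In atria the lowest shares were 14.1% in mouse 10 and 17.5% in mouse 13, while the others held 22.7% to 34.5%. Members of mice 10 and 13 stood at -0.78 and -1.13 in atria, and mouse 8, at -1.02 there, held 25.9%. The part of this in the result was not tested.

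In each tissue the genes outside the members whose pattern over libraries was most like the mean deviation of the members were listed. In atria these were Zfp36, Egr3, Asb4, Ppp1r15a and Gm17971 (r = 0.882 to 0.838 over 18 libraries), and in ventricles Btg2, Snora31, Zfp36, Gm3375 and Jun (0.898 to 0.831). In cerebellum they were Uncx, Ccn1, Mmp9, Ints12 and Irf2bp2 (0.950 to 0.855 over 12 libraries). In hippocampus 1700016P03Rik, a transcript that overlaps the microRNA genes Mir132 and Mir212 on the same strand, led at r = 0.978, followed by Cbr1, Egr4, Tbx4 and Gadd45b. In cortex it led again at 0.966, followed by Ccn1, Csrnp1, Gm21814 and Arrdc4. Zfp36, Egr3, Ppp1r15a, Btg2, Jun, Ccn1, Egr4, Gadd45b and Csrnp1 are also in a list of 50 other activity-regulated and early response genes. Of the genes of that list tested, 13 of 46 in atria, 20 of 45 in ventricles, 14 of 49 in cerebellum, 28 of 49 in hippocampus and 17 of 49 in cortex had an r of 0.5 or more, beside 4.85%, 6.10%, 2.63%, 7.94% and 2.78% of all genes.

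Genotype was compared next, which asks whether loss of Gnb5 changes these genes within a tissue. No member was called in any of the 7 comparisons by edgeR's quasi-likelihood test with Benjamini-Hochberg adjustment over all genes, and DESeq2 called none. An unadjusted p below 0.05 was reached by 6 members in Gnb5-/- atria, 4 in ventricles, 2 in cerebellum, 0 in hippocampus and 1 in cortex (edgeR), all with lower values in Gnb5-/- mice, and by 0 in Gnb5+/- atria and 0 in Gnb5+/- ventricles. Of all genes, 8.15%, 4.78%, 5.85%, 7.70% and 7.39% reached it in the same order of tissues, and 7.22% and 4.84% in Gnb5+/- atria and ventricles. The share of all genes called after adjustment was 0.253% in Gnb5-/- atria, 0.188% in ventricles, 0.0817% in cerebellum, 0.165% in hippocampus and 0.0557% in cortex, and 0.0124% and 0.0202% in Gnb5+/- atria and ventricles. With so few genes called, 0 called members is near the background and is no result about the members.

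**Figure D5:**
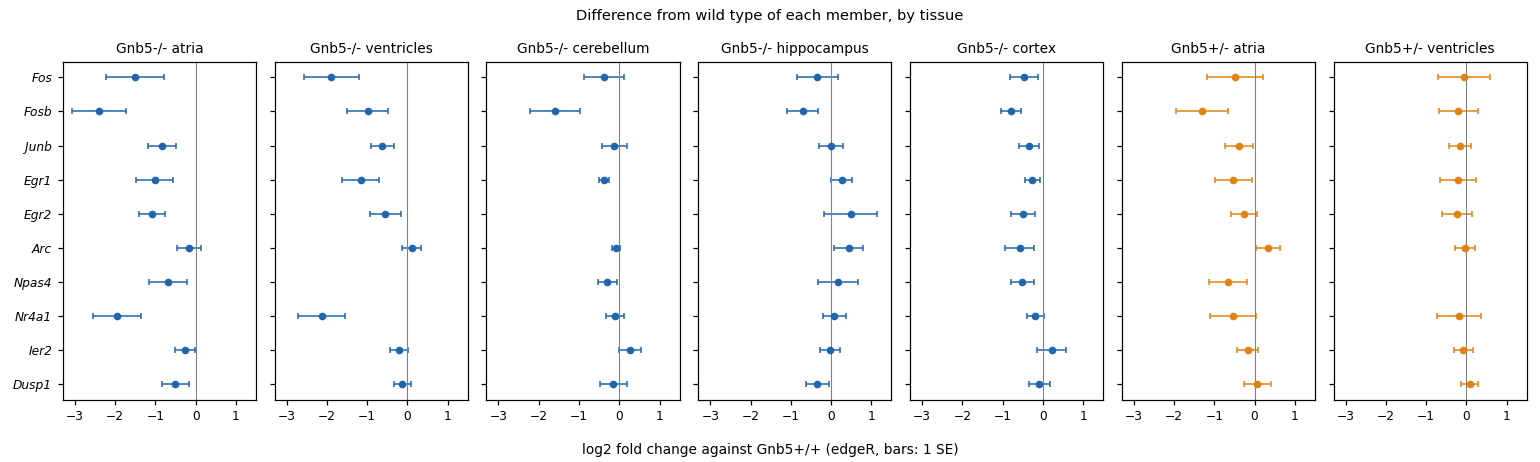
Points give the log2 fold change of each member against Gnb5+/+ (edgeR, bars 1 SE), with a panel for each tissue and genotype; a member with too few reads to be tested has no point. Nr4a1 lies at -1.96 in Gnb5-/- atria and -2.13 in Gnb5-/- ventricles, and in hippocampus the members lie between -0.71 and 0.48.

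In the heart the differences of largest size were in Fosb, Nr4a1 and Fos in atria and in Nr4a1 and Fos in ventricles. In ventricles Nr4a1 ranged from 4.24 through 9.25 to 16.1 CPM in Gnb5-/- and from 4.16 through 40.5 to 92.2 in Gnb5+/+ mice. In atria it ranged from 10.8 through 22.0 to 37.3 CPM in Gnb5-/- and from 10.7 through 90.03 to 153 in Gnb5+/+ mice. The groups overlapped in both chambers. Gnb5+/+ mouse 8 was below the lowest Gnb5-/- mouse in both, and in atria another wild-type mouse lay within the Gnb5-/- range. In ventricles 5 wild-type mice, and in atria 4, lay above the highest Gnb5-/- mouse. Gnb5-/- minus Gnb5+/+ on the log2 scale was -2.13 ± 0.58 in ventricles (SE, unadjusted p = 0.00136, adjusted p = 0.279, edgeR) and -1.96 ± 0.59 in atria (adjusted p = 0.297, edgeR). DESeq2 gave adjusted p = 0.0956 and 0.140. A two-sided exact permutation test over all assignments of the 12 mice to the groups gave an unadjusted p of 0.0368 and 0.0519. Of 70 such tests, over 10 members in 7 comparisons, 1 each in Gnb5-/- atria, ventricles, cerebellum and cortex had an unadjusted exact p below 0.05. None passed after Benjamini-Hochberg adjustment over the 70 tests, with a lowest adjusted exact permutation p of 0.530.

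Fosb in atria ranged from 0.658 through 1.013 to 2.05 CPM in Gnb5-/- and from 0.664 through 2.89 to 21.3 in Gnb5+/+ mice, with a log2 fold change of -2.40 ± 0.68 (adjusted p = 0.249, edgeR). Egr2 in atria ranged from 1.48 through 1.87 to 2.54 CPM in Gnb5-/- and from 1.90 through 3.75 to 6.93 in Gnb5+/+ mice, with -1.08 ± 0.33 (adjusted p = 0.298, edgeR) and an unadjusted exact permutation p of 0.0152. Both genes had 4 wild-type mice above the highest Gnb5-/- mouse, and mouse 8 was within the Gnb5-/- range. Fos differed by -1.52 ± 0.72 in atria and -1.89 ± 0.69 in ventricles, Egr1 by -1.02 ± 0.47 and -1.16 ± 0.46, and Junb by -0.84 ± 0.35 and -0.63 ± 0.28, with adjusted p from 0.519 to 0.986 (edgeR). Without mouse 16, Fosb in atria differed by -1.50. Without mouse 15, Egr1 differed by -0.26 in atria and -0.33 in ventricles, Fos by -0.64 and -0.93, and Junb by -0.56 and -0.42. Arc differed by -0.17 ± 0.30 in atria and 0.10 ± 0.24 in ventricles, Ier2 by -0.27 ± 0.25 and -0.22 ± 0.23, and Dusp1 by -0.51 ± 0.33 and -0.13 ± 0.21. The interval of 2 SE on either side ran from -0.77 to 0.42 for Arc and from -1.18 to 0.16 for Dusp1 in atria, so sizeable differences were not detectable with this spread. Values were lower in Gnb5-/- atria for 10 of 10 members (median -0.93, all genes 0.00) and in ventricles for 8 of 9 (median -0.63, all genes -0.01). Since members moved together from mouse to mouse, these are not separate observations. In the same atria the summed level of adipocyte markers ranged from 11.3 to 294 CPM in Gnb5-/-, from 28.1 to 51.6 in Gnb5+/- and from 11.4 to 32.8 in Gnb5+/+ mice. The 4 adipocyte markers tested had a median log2 difference of 1.69 in Gnb5-/- atria, with 3 at an unadjusted p below 0.05 and none called (edgeR), and of 1.14 in Gnb5+/- atria. Over atria within a genotype the sum had r = -0.0545 with the mean of the members, and its part in the genotype differences was not tested.

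In Gnb5+/- atria the members had a median log2 difference from Gnb5+/+ of -0.44, from -1.30 for Fosb to 0.34 for Arc (with 1 library left out, -1.59 to -0.41 and 0.21 to 0.69), and in ventricles a median of -0.16, from -0.23 for Egr2 to 0.08 for Dusp1. Nr4a1 ranged from 15.2 through 32.8 to 177 CPM in Gnb5+/- atria, where mouse 6 held the highest value of all 18 mice. Gnb5+/- and Gnb5-/- mice were compared with the same wild-type libraries, so both comparisons share mice 8 and 15.

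In cerebellum Egr1 ranged from 30.2 through 34.4 to 39.1 CPM in Gnb5-/- and from 33.8 through 43.4 to 61.5 in Gnb5+/+ mice. Here 5 wild-type mice lay above the highest Gnb5-/- mouse, and the groups differed by -0.39 ± 0.13 on the log2 scale (SE, adjusted p = 0.583, edgeR), with an unadjusted exact permutation p of 0.0152. Fosb stood at 0.850 ± 0.604 CPM in Gnb5-/- and 2.59 ± 2.15 in Gnb5+/+ cerebellum (SD, n = 6), a log2 fold change of -1.597 ± 0.62 (adjusted p = 0.583, edgeR). In cortex it stood at 13.1 ± 3.13 against 22.7 ± 8.21 CPM, a log2 fold change of -0.80 ± 0.25 (adjusted p = 0.474, edgeR). Values were lower in Gnb5-/- mice for 8 of 9 members in cerebellum (median -0.15), 4 of 10 in hippocampus (median 0.04) and 9 of 10 in cortex (median -0.40). Ier2, at 0.27 ± 0.27 in cerebellum and 0.22 ± 0.36 in cortex, had the higher values in Gnb5-/- mice, and its highest ones, 27.4 CPM in mouse 12 and 19.9 CPM in mouse 14, came from the libraries that stood apart. With 1 library left out at a time the log2 fold change of Ier2 ran from -0.06 to 0.37 in cerebellum and from -0.16 to 0.40 in cortex.

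Whether the knockout effect differed between tissues was tested within the heart and within the brain, with the mouse as a block. No member was called in any of the 4 tests (edgeR), nor with RLE scaling, with no filter on low counts or without the mouse block. An unadjusted p below 0.05 was reached by Egr1 for hippocampus against cerebellum, a difference of 0.72 ± 0.30 in log2 fold change (adjusted p = 0.884, edgeR), and by Arc for cortex against hippocampus, at -0.94 ± 0.40 (adjusted p = 0.641, edgeR). The share of all genes called after adjustment was 0.00622% for ventricles against atria and 0.0258% for hippocampus against cerebellum. It was 0.0103% for cortex against cerebellum and 0.0% for cortex against hippocampus. At an unadjusted p below 0.05 (edgeR) were 721 of 19388 genes (3.72%) for hippocampus against cerebellum and 857 (4.42%) for cortex against hippocampus.

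Other genes of the response were read from lists. Of the 50 other activity-regulated and early response genes, none was called in any genotype comparison (edgeR). In Gnb5-/- atria 42 of 46 had lower values than wild type (median -0.24) and 15 had an unadjusted p below 0.05, beside 8.15% of all genes. Over the 7 comparisons 49.1% to 51.9% of all genes had lower values. In Gnb5-/- ventricles 36 of 45 were lower and 11 had an unadjusted p below 0.05, where 4.78% of all genes did, and in Gnb5+/- atria 39 of 46 were lower and 14 had such a p, where 7.22% of all genes did. Elsewhere the list was more even, with 28 of 45 lower in Gnb5+/- ventricles and 24, 30 and 27 of 49 in Gnb5-/- cerebellum, hippocampus and cortex, and 0, 3, 7 and 3 at an unadjusted p below 0.05. Of 24 upstream kinases and transcription factors none was called, and the median of the list lay between -0.09 and 0.02 over the comparisons. Heat shock genes, which follow heat and handling, had lower values than wild type in 9 of 9 cases in Gnb5-/- atria (median -0.41), ventricles (-0.43) and hippocampus (-0.21) and in Gnb5+/- atria (-0.61), and in 7, 7 and 6 of 9 in Gnb5+/- ventricles and Gnb5-/- cerebellum and cortex. An unadjusted p below 0.05 was reached by 6, 3, 3, 8, 5, 0 and 1 of them in that order (edgeR), and none was called, with a lowest adjusted p of 0.270 in Gnb5-/- hippocampus. Genotypes of a heart chamber share their wild-type libraries. Of 11 glucocorticoid-responsive genes none was called, with 0 to 3 at an unadjusted p below 0.05. Over mice within a genotype, the summed level of the glucocorticoid-responsive genes had r = 0.511 with the mean of the members in atria, and that of the heat shock genes ran from 0.00258 in atria to 0.318 in ventricles.

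Markers of cell types were set beside the members in the same way. Over the marker lists and the 5 tissues, r of the summed marker level with the mean of the members ran from -0.589 (endothelial, hippocampus) to 0.578 (erythroid, hippocampus). The hippocampal sums ranged from 101 to 127 CPM for the 5 endothelial and from 23.0 to 46.6 CPM for the 5 erythroid markers. In the same libraries summed excitatory neuron markers had r = 0.193 with the members. In ventricles the share of reads outside genes had r = -0.594 and the mitochondrial share 0.513. The part of these in the results was not tested. Of the marker genes, 1 was called in a genotype comparison. Drd2, a dopamine receptor and striatal marker, chosen for mention after its value was seen, was higher in Gnb5-/- than in Gnb5+/+ ventricles by 0.85 on the log2 scale (adjusted p = 0.0398, edgeR).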

How the data were processed

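Bulk RNA-seq was made with a stranded total RNA kit. The authors trimmed reads with cutadapt 1.8, aligned them to GRCm38 with STAR 2.5.3a and counted reads per gene with HTSeq 0.9.1, per the submitters' processing notes and the study's methods, and the deposited values are raw counts per gene and library. The strand setting of the counting is not given in the sources used here. All 72 count files were joined on gene identifier (53715 genes, of which 95 matched no annotation entry), and 0 columns belonged to no sample of the series. Reads outside genes, 2.85% to 17.0% of a library, were kept out of library sizes. Library totals ran from 29204390 to 48807435 counts. No 2 replicates were near-identical: the lowest chi-square per gene over 180 replicate pairs was 6.40. No label says more about replicates than that they came from different mice.

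Genes with low counts were removed with edgeR 4.0.16 (filterByExpr, count minimum 10) in R 4.3.3 and TMM scaling was used. Genotypes were compared within each tissue by edgeR's quasi-likelihood test over all genotypes of the tissue. Tissues were compared in Gnb5+/+ mice, and genotype effects between tissues, with the mouse as a block. P-values were adjusted by Benjamini and Hochberg over all genes, with a threshold of 0.05. Log2 CPM used a prior count of 2. Correlations over mice were tested with 100000 permutations within genotype in Python 3.11.15 with scipy 1.17.1, and single values between genotypes with exact permutation tests. Alternatives were DESeq2 1.42.0, RLE scaling, no filter, a prior count of 0.5, a replicate block and genotype means kept. Others were a covariate for the percentage of reads outside genes, only the 2 genotypes compared in the heart, and each replicate left out. The tests were checked on simulated data.

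All 10 members are described in every tissue, Gnb5 as a check of labels, other list genes where called in a genotype comparison, and per tissue the 5 genes outside the members with the largest r to the members' mean deviation. Mice are named by number where highest or lowest. The members and lists were chosen with earlier results of these data known. Promoters came from RefSeq on GRCm38.p6.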

Additional observations from a re-analysis of the deposited data

Results flagged for a closer look

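In 115 groups of 6 values, 1 for each gene, tissue and genotype that passed the filter, 4 had a highest or lowest mouse far from the others by Dixon's criterion, where chance gives 5.75. Egr1 in Gnb5+/+ atria of mouse 15 was 218 CPM, with 62.8 CPM the next, a gap of 0.650 of the group's range. Ier2 in Gnb5-/- cerebellum of mouse 12, a library that stood apart over all genes, was 27.4 CPM, with 12.5 CPM the next (0.707 of the range). Ier2 in Gnb5-/- atria of mouse 5 was 14.5 CPM, with 8.72 CPM the next (0.630). Junb in Gnb5-/- ventricles of mouse 14 was lowest at 5.36 CPM, with 7.17 CPM the next (0.634). The low values of mouse 8 met the criterion in 0 groups.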

How the results depend on the processing

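In all 7 genotype comparisons 0 members were called under RLE scaling, no filter, DESeq2, the covariate and each replicate left out. With only the 2 genotypes compared, an alternative run in the heart alone, the count was also 0. No called tissue difference or correlation changed sign, nor did a genotype difference with an unadjusted p below 0.05 (edgeR). Of the 67 genotype differences of members, 10 changed sign under at least 1 other setting with all replicates kept and 27 with at least 1 replicate left out. With the replicate number as a block 0 members were called in each comparison, and the pairing was not borne out: the numbers join different animals, r of same-numbered deviations ran from -0.24 to 0.15, and at most 1 of 6 libraries matched its own number best. In wild-type tissues Junb and Egr1 lost their call between ventricles and atria under RLE scaling and DESeq2, Ier2 between cerebellum and ventricles without the filter, and Npas4 (hippocampus against cerebellum) and Fosb (cortex against hippocampus) under DESeq2. The causes were not tested. Leaving out 1 wild-type mouse ended at least once the calls of Fos, Junb and Egr1 between ventricles and atria, Fos and Ier2 between cerebellum and atria, Fos and Junb between cortex and atria, Fosb between hippocampus and atria, Junb between hippocampus and ventricles, Ier2 between cerebellum and ventricles, Npas4 between hippocampus and cerebellum, and Arc and Fosb between cortex and hippocampus. The members called between ventricles and atria then numbered 4 to 6. Correlations called over all tissue pairs ran from 7 to 31 with 1 mouse left out, those within the brain from 2 to 13, within the heart from 3 to 7 and between heart and brain from 1 to 15. Those of Fos, Junb and Nr4a1 between atria and ventricles, Ier2 between ventricles and cerebellum, Fos between cerebellum and hippocampus and Dusp1 between hippocampus and cortex were called with any 1 mouse left out. Members among the 10% of genes with the largest spread ran from 2 to 6 in cerebellum and from 0 to 7 in cortex. Keeping the genotype means gave 31 called correlations and ended those of Nr4a1 between hippocampus and each heart chamber, Ier2 between ventricles and cerebellum, and Arc and Npas4 between hippocampus and cortex. Depth limited Npas4 in ventricles and Egr2 in cerebellum.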
